A study of Mus musculus with 12 samples.

Results

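The genes described here are 10 that mark or build the endothelial and blood progenitor lineages, namely the receptors Kdr, Flt1, Flt4 and Tek, the junction proteins Pecam1 and Cdh5, and the transcription factors Tal1, Lmo2, Gata2 and Etv2. They were taken by symbol from a table of RNA-seq read counts for 24495 mouse genes, and all 10 were among the 15532 genes with enough reads to test. The cells were CCE-Nanog-GFP mouse embryonic stem cells (mESCs), which carry a green fluorescent reporter of the pluripotency gene Nanog and were sorted for its fluorescence before the experiments. In the shCTSL line (labelled KD, genotype CTSL KD) a lentiviral short hairpin RNA targeted Ctsl, which encodes the lysosomal protease cathepsin L, and the shSC line (labelled scr or WT) carried a scrambled hairpin. Both lines had gone through lentiviral transduction and drug selection, and a single shCTSL line was sequenced. Each line was sampled as undifferentiated mESCs (Day 0) and after 2 and 4 days (Day 2, Day 4) as embryoid bodies in medium with all-trans retinoic acid and without leukemia inhibitory factor, with 2 libraries in each of the 6 groups and 12 in all. These are bulk samples, so for every gene below fewer cells of a type and less RNA per cell cannot be told apart.

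In the mouse embryo the first endothelial and blood cells arise from mesoderm that switches on Kdr, the main receptor for vascular endothelial growth factor (VEGF), under the brief control of the ETS factor Etv2. Tal1, its partner Lmo2 and Gata2 then form a complex on DNA that drives blood and endothelial genes, while Cdh5 and Pecam1 join mature endothelial cells to each other. Several of the 10 genes are also used elsewhere: Pecam1 is a surface protein of undifferentiated mESCs, Gata2 acts in trophoblast and in V2b interneurons of the spinal cord, and Tal1 also acts in those interneurons.

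The promoters of the members were searched for the short words that the factors among them recognise, and for those of the retinoic acid receptor because of the treatment. The RefSeq promoter table, which uses build GRCm38.p6, held 9 windows for 7 of the 10 members, and each was read over the 250 bases before the transcription start. Pecam1, Cdh5 and Lmo2 were not in that table. The words were AGATAA and TGATAA for GATA factors, CCGGAA and CAGGAA for ETS factors, CAGCTG and CAGATG for the E-boxes that Tal1 binds, and AGGTCA and AGTTCA for the retinoic acid receptor. Both strands were searched, and no matches overlapped in these windows. The 4 windows that held any of the words are printed 5′ to 3′ along the gene's strand, with the matches on either strand in capitals. They are Kdr at chr5:75978456-75978705 on the minus strand, Etv2 at chr7:30635853-30636102 on the minus strand, Tek at chr4:94739039-94739288 on the plus strand, and the upstream start of Tal1 at chr4:115056176-115056425 on the plus strand.
Kdr: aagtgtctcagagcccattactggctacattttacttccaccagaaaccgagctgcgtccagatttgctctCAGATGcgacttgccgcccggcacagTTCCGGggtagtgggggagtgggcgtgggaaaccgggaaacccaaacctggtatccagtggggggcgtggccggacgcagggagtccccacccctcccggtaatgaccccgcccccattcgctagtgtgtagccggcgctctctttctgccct
Etv2: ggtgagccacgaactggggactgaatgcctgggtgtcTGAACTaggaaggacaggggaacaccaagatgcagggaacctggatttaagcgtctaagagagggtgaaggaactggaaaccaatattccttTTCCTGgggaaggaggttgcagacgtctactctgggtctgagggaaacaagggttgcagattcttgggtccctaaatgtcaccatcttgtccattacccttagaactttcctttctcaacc
Tek: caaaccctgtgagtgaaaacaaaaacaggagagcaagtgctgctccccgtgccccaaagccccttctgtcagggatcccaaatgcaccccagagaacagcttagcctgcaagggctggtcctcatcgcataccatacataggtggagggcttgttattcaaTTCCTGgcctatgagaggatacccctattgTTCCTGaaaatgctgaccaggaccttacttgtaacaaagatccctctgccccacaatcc
Tal1: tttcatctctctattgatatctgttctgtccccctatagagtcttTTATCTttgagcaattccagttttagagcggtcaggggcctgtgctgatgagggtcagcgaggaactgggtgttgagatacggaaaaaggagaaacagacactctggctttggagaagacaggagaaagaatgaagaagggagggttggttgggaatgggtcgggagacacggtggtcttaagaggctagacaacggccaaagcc

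The Kdr window held an E-box word whose first base lay at -179 from the start and an ETS word at -153. The Etv2 window held a retinoic acid receptor word at -213 and an ETS word at -121. The Tek window held 2 ETS words, at -89 and -59, and the Tal1 window a GATA word at -205. The ETS words were thus in 3 of the 9 windows, against 35.1% of all 32851 promoter windows in the table, and the E-box, retinoic acid receptor and GATA words in 1 of 9 each, against 25.5%, 24.2% and 16.6%. A match is only a run of letters, and no binding was measured. The windows of Flt1, Flt4, Gata2 and the downstream start of Tal1 held none of these words, which says nothing about the factors themselves.

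Total counts ran from 11171111 to 27155553 per library. The targeted gene Ctsl had 137 and 147 CPM (counts normalised to library size) in the shSC libraries at Day 0 against 39.2 and 37.5 in the shCTSL libraries, and its difference between the lines on the log2 scale was -1.89 at Day 0, -1.06 at Day 2 and -0.83 at Day 4 (adjusted p = 0.00246, 0.0342 and 0.0896, edgeR quasi-likelihood test). Thus Ctsl rose with differentiation in both lines, and at Day 4 its difference between the lines did not pass the test. Its level at Day 4 was still lower in both shCTSL libraries, at 257 and 253 CPM against 484 and 423 in the shSC libraries. The 2 shCTSL Day 2 libraries stood apart from every other pair of replicates. The SD of their log2 ratio over genes was 0.604 against 0.178 to 0.269 in the other groups, the ratio varied with the length of the transcript (Pearson's r = -0.54 across 14027 genes, against -0.20 to 0.30, where genes are not independent replicates), and the ribosomal gene Rn45s took 3.43% of the counts of replicate 1 against 0.170 to 1.43% elsewhere. For the genes described here, the main counts of calls that rest on them are also given without each of them, as are some single values. The remaining values, including most of those for other gene lists, are given with both libraries only. A fit without 1 of these libraries assumes that the lone library varies as the other groups do.

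From Day 0 to Day 2 all 10 genes changed in both lines. Of the 10, 9 rose and Pecam1 fell, in the shSC and in the shCTSL line. A gene is called changed here when its adjusted p is under 0.05 and its change 1.5-fold or more, and by that rule 29.3% of all genes tested rose and 25.3% fell in the shSC line, and 30.9% rose and 24.6% fell in the shCTSL line. The median log2 fold change of the 10 genes was 2.97 in the shSC line and 2.13 in the shCTSL line, against 0.02 and 0.08 over all genes tested. Leaving out any single library left all 10 called in both lines.

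**Figure D1:**
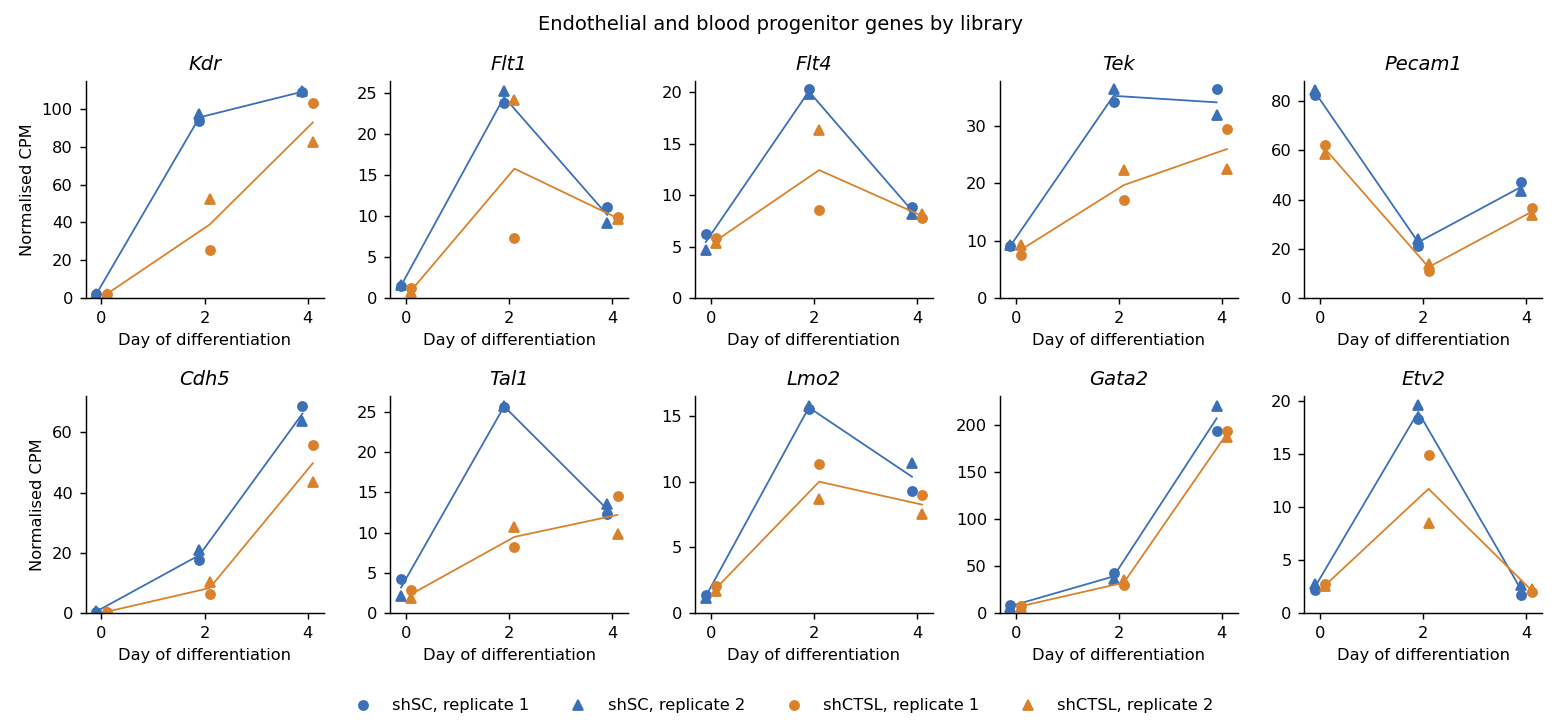
Normalised expression (CPM, vertical axis, from 0 in each panel) of the 10 genes at Day 0, 2 and 4 (horizontal axis) in the shSC and shCTSL lines, with a point for each library and lines through the group means of 2 libraries. Etv2 was high at Day 2 alone, Gata2 and Cdh5 were highest at Day 4, and Pecam1 was highest at Day 0.

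Among the receptors, Kdr (chr5:76328852-76374483, minus strand, gene positions in mm9) rose strongly by Day 2 in both lines. Its level was 2.13 and 2.23 CPM at Day 0, 93.7 and 97.1 at Day 2, and 109 and 109 at Day 4 in the shSC libraries (replicate 1 before replicate 2, as in all values below). In the shCTSL libraries it was 2.31 and 2.0 at Day 0, 25.3 and 52.5 at Day 2, and 103 and 82.4 at Day 4. The lines overlapped at Day 0, and at Day 2 and Day 4 both shCTSL libraries lay under both shSC libraries. The log2 fold change from Day 0 to Day 2 was 5.44 ± 0.34 (SE, adjusted p = 6.26e-07) in the shSC line and 4.16 ± 0.35 (adjusted p = 3.78e-06) in the shCTSL line. From Day 2 to Day 4 Kdr changed by 0.19 ± 0.26 in the shSC line (adjusted p = 0.626) and rose by 1.25 ± 0.26 in the shCTSL line (adjusted p = 0.00561). The last call was lost when only the 2 groups compared were fitted (adjusted p = 0.124). It kept its direction without either shCTSL Day 2 library, with log2 fold changes of 0.80 without replicate 1 and 1.87 without replicate 2. Kdr was named for its Day 2 difference between the lines, and both steps use those Day 2 levels. Its tests within a line are thus not independent of that choice, and no difference between the lines is drawn from them.

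Flt1 (chr5:148373180-148537587, minus strand), the VEGF receptor that binds the ligand tightly and signals weakly, was high at Day 2 and lower again at Day 4. It was at 1.45 and 1.61 CPM, then 23.8 and 25.3, then 11.2 and 9.15 in the shSC libraries, and at 1.19 and 0.737, then 7.38 and 24.2, then 9.85 and 9.69 in the shCTSL libraries. The 2 shCTSL Day 2 libraries were far apart, and the higher of them lay within the shSC range. The rise to Day 2 was 3.99 ± 0.50 in the shSC line (adjusted p = 6.73e-05) and 4.0 ± 0.57 in the shCTSL line (adjusted p = 0.000148). The fall from Day 2 to Day 4 in the shSC line, -1.26 ± 0.40 (adjusted p = 0.0378), was close to the threshold, and the call was lost on leaving out any 1 of the 10 libraries outside shCTSL Day 2. In the shCTSL line the same change was -0.71 ± 0.40 (adjusted p = 0.215), and it was -1.33 without replicate 1 of Day 2 and 0.40 without replicate 2, so that 1 library set its direction.

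Flt4 (chr11:49422765-49466241, plus strand), the receptor for VEGF-C on lymphatic and early vascular endothelium, was also highest at Day 2. Its levels were 6.25 and 4.65 CPM, 20.3 and 19.8, and 8.84 and 8.18 at Day 0, 2 and 4 in the shSC libraries. They were 5.82 and 5.37, 8.55 and 16.3, and 7.74 and 8.22 in the shCTSL libraries. At Day 2 both shCTSL libraries lay under the shSC pair, and at Day 4 the lines overlapped. The rise to Day 2 was 1.89 ± 0.27 in the shSC line (adjusted p = 0.000157) and 1.16 ± 0.28 in the shCTSL line (adjusted p = 0.00424, or 0.051 when only those groups were fitted). It then fell by 1.23 ± 0.25 on the log2 scale in the shSC line (adjusted p = 0.00484), and the change in the shCTSL line was -0.65 ± 0.26 (adjusted p = 0.0839), or -1.05 and -0.10 without replicate 1 and replicate 2 of Day 2. At Day 4 the difference from Day 0 was 0.65 in the shSC line (adjusted p = 0.0576) and 0.51 in the shCTSL line (adjusted p = 0.136), and the former was called by DESeq2 (adjusted p = 0.0401) and, with edgeR, without replicate 1 or without replicate 2 of shCTSL Day 2 (adjusted p = 0.000736 and 0.00101).

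Tek (chr4:94405980-94541667, plus strand), the receptor for angiopoietins that is also known as Tie2, rose by Day 2, and no further change by Day 4 passed the test. It was at 9.0 and 9.23 CPM, 34.0 and 36.3, and 36.3 and 31.8 in the shSC libraries and at 7.53 and 9.27, 17.0 and 22.3, and 29.4 and 22.4 in the shCTSL libraries. Both shCTSL libraries lay under the shSC pair at Day 2 and again at Day 4. The rise to Day 2 was 1.95 ± 0.19 in the shSC line (adjusted p = 9.86e-06) and 1.24 ± 0.19 in the shCTSL line (adjusted p = 0.000281). From Day 2 to Day 4 Tek changed by -0.05 ± 0.17 in the shSC line and by 0.39 ± 0.18 in the shCTSL line (adjusted p = 0.876 and 0.121), and the latter was called without replicate 2 of shCTSL Day 2 (0.60, adjusted p = 0.0046).

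The junction proteins moved in opposite directions from Day 0 to Day 2, and both rose from Day 2 to Day 4. Cdh5 (chr8:106625525-106668402, plus strand), or VE-cadherin, which holds endothelial cells together, was barely detected in mESCs, with 5 to 10 reads per library. It was at 0.457 and 0.620 CPM at Day 0, 17.5 and 21.0 at Day 2, and 68.6 and 63.7 at Day 4 in the shSC libraries. In the shCTSL libraries it was at 0.373 and 0.527, 6.22 and 10.4, and 55.9 and 43.5. Cdh5 thus rose in both steps in both lines, by 5.12 ± 0.34 and 1.78 ± 0.22 in the shSC line (adjusted p = 8e-07 and 0.000228) and by 4.24 ± 0.39 and 2.56 ± 0.23 in the shCTSL line (adjusted p = 7.11e-06 and 3.88e-05). Both shCTSL libraries lay under both shSC libraries at Day 2 and at Day 4.

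Pecam1 (chr11:106515531-106611942, minus strand), or CD31, was the only member that fell from Day 0 to Day 2. It was at 82.5 and 84.5 CPM at Day 0, 21.3 and 24.1 at Day 2, and 47.1 and 43.3 at Day 4 in the shSC libraries, and at 62.4 and 58.6, 11.3 and 14.0, and 36.5 and 33.6 in the shCTSL libraries. Each pair of shCTSL libraries lay under the shSC pair of the same day, including Day 0. The fall to Day 2 was -1.88 ± 0.13 in the shSC line (adjusted p = 1.12e-06) and -2.25 ± 0.14 in the shCTSL line (adjusted p = 4.6e-07). Part of it was regained by Day 4, with rises of 0.99 ± 0.13 (adjusted p = 0.000322) and 1.47 ± 0.13 (adjusted p = 3.93e-05), while the level stayed below that of Day 0 by 0.88 and 0.79 on the log2 scale. The naive pluripotency genes, whose summed level moved with Pecam1 in its fall, went from 6632 to 6783 CPM at Day 0 to 1293 to 1313 at Day 2 and then on down to 689 to 791 at Day 4 in the shSC libraries (lowest to highest library), when Pecam1 was rising. The part of the loss of mESCs in the level of Pecam1 was not tested.

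The transcription factors had 3 kinds of course. Etv2 (chr7:31418635-31421308, minus strand), the ETS factor at the top of the endothelial program, was high at Day 2 alone. It was at 2.21 and 2.79 CPM at Day 0, 18.3 and 19.6 at Day 2, and 1.72 and 2.64 at Day 4 in the shSC libraries, and at 2.76 and 2.53, 14.9 and 8.51, and 2.0 and 2.26 in the shCTSL libraries. In both lines every Day 2 library lay above every Day 0 and Day 4 library. Etv2 rose by 2.91 ± 0.29 and then fell by 3.15 ± 0.29 on the log2 scale in the shSC line (adjusted p = 1.29e-05 and 4.22e-05), and rose by 2.13 ± 0.30 and then fell by 2.44 ± 0.29 in the shCTSL line (adjusted p = 0.000151 and 0.000214). Day 4 against Day 0 gave -0.24 and -0.31 (adjusted p = 0.539 and 0.434). It was among the members whose shCTSL Day 2 level was higher in replicate 1 than in replicate 2, together with Lmo2.

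Gata2 (chr6:88143885-88157024, plus strand), a GATA factor needed for blood stem cells, rose in both steps in both lines. Its levels were 8.31 and 6.51 CPM, 42.2 and 35.7, and 193 and 220 in the shSC libraries, and 7.83 and 6.85, 29.8 and 34.8, and 194 and 187 in the shCTSL libraries. The lines overlapped at Day 0 and Day 4, and at Day 2 the shCTSL pair lay just under the shSC pair. The steps were 2.40 ± 0.16 and 2.41 ± 0.15 in the shSC line (adjusted p = 8.97e-07 and 4.08e-06) and 2.13 ± 0.16 and 2.56 ± 0.15 in the shCTSL line (adjusted p = 2.18e-06 and 3.58e-06).

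Tal1 (chr4:114729031-114744360, plus strand), a basic helix-loop-helix factor, and Lmo2 (chr2:103798143-103822035, plus strand), the adaptor that links it to GATA factors, rose by Day 2 and were lower at Day 4 in the shSC line. Tal1 was at 4.19 and 2.17 CPM, 25.6 and 25.8, and 12.3 and 13.5 in the shSC libraries and at 2.83 and 1.90, 8.25 and 10.7, and 14.6 and 9.84 in the shCTSL libraries. Lmo2 was at 1.37 and 1.18, 15.5 and 15.8, and 9.32 and 11.4 in the shSC libraries and at 2.09 and 1.69, 11.3 and 8.68, and 8.99 and 7.53 in the shCTSL libraries. For both genes the shCTSL libraries lay under the shSC pair at Day 2, and at Day 4 this was so for Lmo2 while the lines overlapped for Tal1. The rise of Tal1 to Day 2 was 3.03 ± 0.30 in the shSC line and 1.97 ± 0.33 in the shCTSL line (adjusted p = 1.25e-05 and 0.000446), and that of Lmo2 was 3.62 ± 0.23 and 2.38 ± 0.23 (adjusted p = 6.25e-07 and 9.36e-06). From Day 2 to Day 4 Tal1 fell by 0.99 ± 0.26 and Lmo2 by 0.60 ± 0.18 on the log2 scale in the shSC line (adjusted p = 0.016 and 0.0284). The call for Tal1 was lost without any 1 of the 4 shSC libraries of those days, with adjusted p from 0.0645 to 0.121, and that for Lmo2 without either shSC Day 2 library or replicate 1 of shSC Day 4, with adjusted p from 0.115 to 0.218. With exonic length offsets Lmo2 changed by -0.57, under the fold required. In the shCTSL line the same step was 0.36 ± 0.27 for Tal1 and -0.27 ± 0.18 for Lmo2 (adjusted p = 0.349 and 0.295).

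By count, then, 8 of the 10 genes changed from Day 2 to Day 4 in the shSC line, where Pecam1, Cdh5 and Gata2 rose and Flt1, Flt4, Tal1, Lmo2 and Etv2 fell. Over all genes tested, 11.4% rose and 12.4% fell. In the shCTSL line 5 changed, Kdr, Pecam1, Cdh5 and Gata2 upward and Etv2 downward, against 11% and 12.4% of all genes. The call for Kdr rests on the Day 2 level for which it was named. The shSC count fell to 5 without replicate 1 or replicate 2 of shSC Day 2 or without replicate 1 of shSC Day 4, while the shCTSL count was 7 without replicate 1 and 6 without replicate 2 of shCTSL Day 2. Day 4 against Day 0 gave 8 called genes in each line, 7 higher and Pecam1 lower, and Flt4 and Etv2 did not pass. The shares of all genes were 32.1% higher and 28.7% lower in the shSC line and 32.3% and 27.6% in the shCTSL line.

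**Figure D2:**
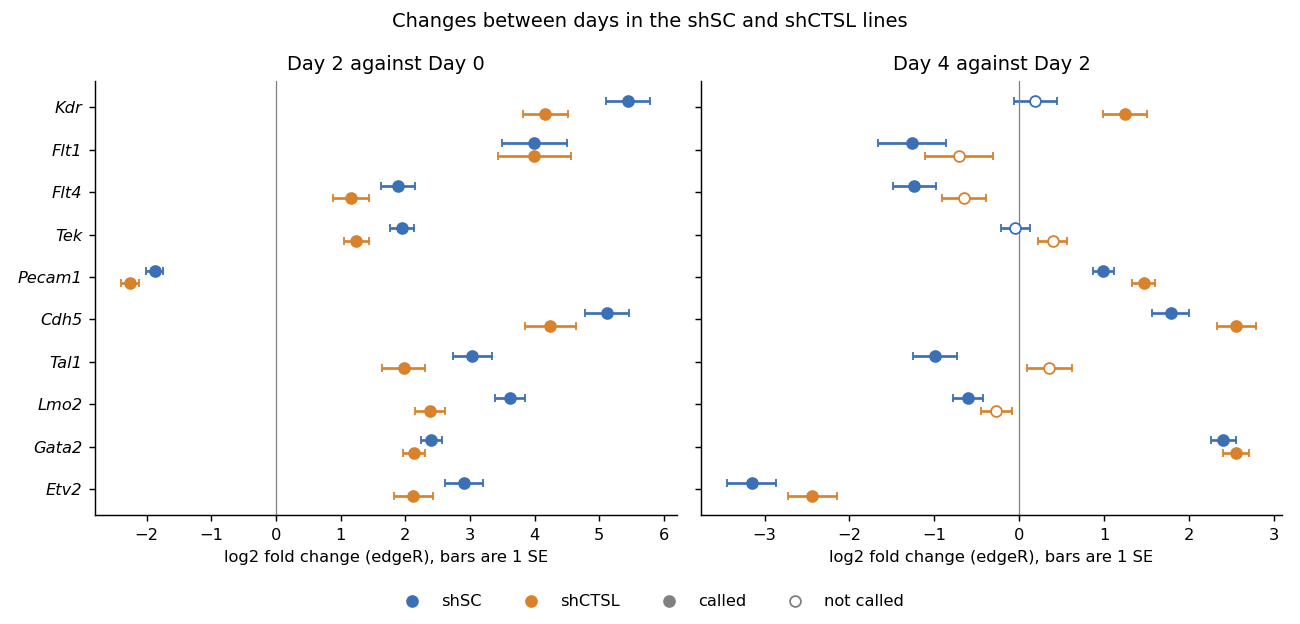
Log2 fold change (horizontal axis) from Day 0 to Day 2 and from Day 2 to Day 4 for each of the 10 genes in the shSC and shCTSL lines, with bars of 1 standard error on each side and filled points for genes called changed. From Day 0 to Day 2 every gene but Pecam1 lies above 0 in both lines, and from Day 2 to Day 4 the genes part, from Etv2 at -3.15 to Gata2 at 2.41 in the shSC line.

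Levels can be compared between genes only per length, and by CPM divided by kilobases of exon (RPKM) the order of the 10 genes changed from day to day. In shSC mESCs Pecam1 was far above the rest at 19.4 RPKM (group mean), and Gata2 at 2.21, Tek at 1.93 and Etv2 at 1.68 followed. Gata2 overlapped Tek in its range over the libraries, but Tek did not overlap Etv2. Tal1, Flt4 and Lmo2, at 0.726, 0.662 and 0.589, also overlapped. Kdr at 0.30 and then Cdh5 and Flt1, at 0.135 and 0.132, were lowest, the last pair overlapping. At Day 2 the order was led by Kdr at 13.1, Etv2 at 12.7 and Gata2 at 11.6, with the ranges of Kdr and Etv2 overlapping and those of Etv2 and Gata2 as well. Tek at 7.46 and Lmo2 at 7.23 overlapped, Tal1 at 5.86 did not overlap its neighbours, Pecam1 at 5.27 and Cdh5 at 4.83 overlapped, and Flt4 and Flt1 came last at 2.44 and 2.12. At Day 4 Gata2 stood alone at 61.6, followed without overlap by Cdh5 at 16.6, Kdr at 15.0, Pecam1 at 10.5, Tek at 7.22, Lmo2 at 4.79, Tal1 at 2.95, Etv2 at 1.46, Flt4 at 1.03 and Flt1 at 0.878.

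The same levels can be placed among the 14027 tested genes that had an exonic length, by mean RPKM. In the shSC line Gata2 moved from percentile 35.9 of these genes at Day 0 to percentile 63.6 at Day 2 and 94.4 at Day 4. Kdr moved from percentile 17.0 to 66.6 and 69.1, and Cdh5 from 11.3 to 43.3 and 71.8. Etv2 went from percentile 32.9 to 65.8 and back to 25.5. In the shCTSL line Kdr was at percentile 45.9 at Day 2 and at 65.6 at Day 4.

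The design also asks whether the lines differ on a given day. At Day 0 none of the 10 genes was called different by edgeR, and DESeq2 called 0. Of the 10, 1 had an unadjusted p under 0.05 (Pecam1, log2 difference -0.47, adjusted p = 0.363), against 1127 of all 15532 genes. The differences of shCTSL from shSC ran from -0.62 for Flt1 to 0.59 for Lmo2, and 0.0386% of all genes were called, or 6 genes. At Day 4 none was called either. The differences ran from -0.41 for Cdh5 to 0.01 for Etv2, with Tek at -0.40 and Pecam1 at -0.37. Of the 10, 2 had an unadjusted p under 0.05, against 1897 of all 15532 genes, and DESeq2 called 0. By edgeR 0.0129% of all genes were called, or 2 genes. Without replicate 1 or replicate 2 of shCTSL Day 2, which are in neither comparison but enter the shared estimate of spread, 211 and 214 of all genes were called at Day 0 and 926 and 924 at Day 4, and none of the 10 was among them. In 5 of the 10 genes both shCTSL libraries at Day 4 lay under both shSC libraries, in Kdr, Tek, Pecam1, Cdh5 and Lmo2, against 31.5% of all genes tested. The shCTSL mean there was between 75.1% (Cdh5) and 97.9% (Etv2) of the shSC mean over all 10.

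At Day 2 the levels of the shCTSL line were lower for every one of the 10 genes. Kdr was named for its difference on this day when the genes were chosen, so its difference is given as a value with no test. Its shCTSL mean was 40.8% of the shSC mean. The others ran from 36.9% for Tal1 and 43.3% for Cdh5 through 55.6% for Pecam1, 55.9% for Tek, 61.8% for Etv2, 62.0% for Flt4, 63.9% for Lmo2 and 64.4% for Flt1 to 83.0% for Gata2. In 8 of the 9 genes other than Kdr both shCTSL libraries lay under both shSC libraries, with Flt1 as the exception, against 22.7% of all genes tested. None of these 9 was called by edgeR, while 7 had an unadjusted p under 0.05, against 3014 of all 15532 genes. The log2 difference was -1.43 ± 0.26 for Tal1 (adjusted p = 0.132), -1.19 ± 0.23 for Cdh5 (adjusted p = 0.155), -0.84 ± 0.13 for Pecam1 (adjusted p = 0.098) and -0.83 ± 0.18 for Tek (adjusted p = 0.202). It was -0.71 ± 0.25 for Etv2, -0.68 ± 0.25 for Flt4 and -0.65 ± 0.18 for Lmo2 (adjusted p = 0.222 for each). It was -0.27 ± 0.14 for Gata2 and -0.62 ± 0.39 for Flt1 (adjusted p = 0.299 and 0.362). Only 0.0644% of all genes were called on this day by edgeR. DESeq2 called 4 of the 9 lower (Tek, Pecam1, Cdh5 and Tal1), against 0.509% of all genes called lower, and limma with quality weights called 0 of the 9 and 0 of all genes.

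Both shCTSL Day 2 libraries enter these values, and they differed most in the longest transcripts. Relative to the shSC mean, replicate 1 and replicate 2 were at 30.1% and 98.7% for Flt1, whose exons cover 11583 bases, at 42.6% and 81.3% for Flt4, with 8232 bases, and at 26.5% and 55.1% for Kdr, with 7278 bases. For the shorter Tek, Pecam1 and Tal1 (4712, 4314 and 4379 bases) they were at 48.5% and 63.3%, 49.5% and 61.6%, and 32.1% and 41.6%. For the shortest, Etv2 with 1488 bases and Lmo2 with 2166 bases, the order turned, with 78.6% and 44.9% for Etv2 and 72.3% and 55.5% for Lmo2. Cdh5 with 3986 bases was at 32.3% and 54.2%, and Gata2 with 3351 bases at 76.5% and 89.4%. Every one of these values lay under 100%, in each library taken alone. The part of transcript length in the difference between the lines was not tested beyond a fit that adjusts for exonic length, which called 4 of the 9 genes other than Kdr lower (Pecam1, Cdh5, Tal1 and Etv2), against 0.219% of all genes.

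**Figure D3:**
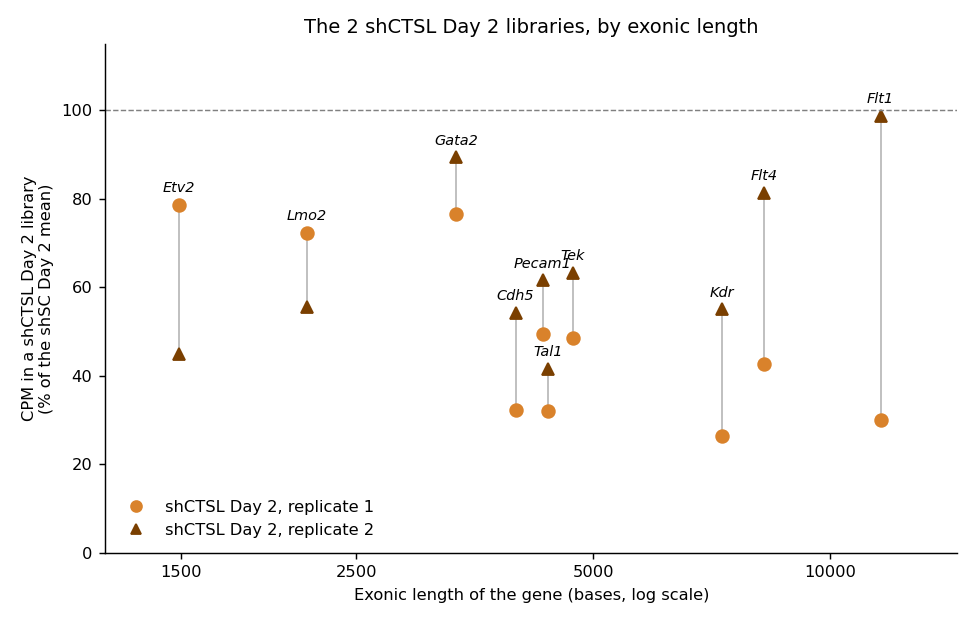
Level of each of the 10 genes in the 2 shCTSL Day 2 libraries as a percentage of the shSC Day 2 mean (vertical axis) against exonic length in bases (horizontal axis, log scale), with a line at 100%. Both libraries lie under 100% for all 10 genes, replicate 1 is the lower for the 8 genes longer than Lmo2, and the gap is widest for Flt1.

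Without replicate 1 or without replicate 2 of shCTSL Day 2, 6 of the 9 genes other than Kdr were called lower in the shCTSL line on that day. Without replicate 1 the share of all genes called lower was 0.447%, and without replicate 2 it was 16.5%, so the 2 counts do not stand against the same background. Each fit sets 1 shCTSL library against the same 2 shSC libraries, so the fits do not replicate each other. Their spread comes from the other groups, which varied less than this pair, so their calls do not cover its spread. Without replicate 1 and without replicate 2, the log2 differences were -0.65 and -1.05 for Tek and -0.69 and -1.01 for Pecam1. They were -0.87 and -1.63 for Cdh5, and -1.26 and -1.64 for Tal1. Kdr was at -0.85 and -1.92, given as values with no test. Lmo2 was at -0.84 and -0.47 and Etv2 at -1.14 and -0.35, while Flt1 was at -0.01 and -1.73 and Flt4 at -0.29 and -1.23. Gata2 was at -0.16 and -0.39.

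A difference in the change between days was tested as an interaction. Both interactions use the Day 2 levels for which Kdr was named, so it is left out of the counts. From Day 0 to Day 2 none of the 9 other genes was called, 3 had an unadjusted p under 0.05 (Tek, Tal1 and Lmo2), and DESeq2 called 0. The difference of the shCTSL change from the shSC change ran from -1.28 for Kdr to 0.00 for Flt1, with Lmo2 at -1.24, Tal1 at -1.06 and Tek at -0.71. From Day 2 to Day 4 none was called either, 3 had an unadjusted p under 0.05 (Pecam1, Cdh5 and Tal1), and DESeq2 called 0. There the difference ran from 0.15 for Gata2 to 1.35 for Tal1, with Kdr at 1.05, Cdh5 at 0.78 and Pecam1 at 0.47. The share of all 15532 genes called was 0% in each, or 0 genes, with 1716 and 753 at an unadjusted p under 0.05 and 24 and 11 called by DESeq2. Without replicate 1 of shCTSL Day 2 the counts among the 9 genes were 2 and 2, against 1.89% and 3.57% of all genes called in the same fit. Without replicate 2 they were 5 and 6, against 26% and 14.7%. These comparisons share the Day 2 libraries of both lines with those above.

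Other genes of the same pathway and lineages were counted in lists that hold none of the 10, and the median log2 fold changes from Day 0 to Day 2 given with them stand beside 0.02 over all genes in the shSC line and 0.08 in the shCTSL line. Of the 10 ligands, co-receptors and partners of VEGF and angiopoietin signalling, 6 rose, 2 fell and 2 were not called from Day 0 to Day 2 in the shSC line, and 7, 2 and 1 in the shCTSL line. At Day 4 it was 8, 1 and 1 in both lines, against the shares of all genes given above. The median was 1.30 in the shSC line and 1.16 in the shCTSL line. Nrp1, a co-receptor of Kdr, went from 1.67 CPM at Day 0 to 86.3 at Day 2 and 280 at Day 4 (shSC group means), and from 2.21 to 79.2 and 238 in the shCTSL line. Tie1, the partner of Tek that is also on the list of endothelial markers, went from 1.01 to 17.8 and 61.1 and from 1.30 to 11.8 and 56.6. Angpt1, the ligand of Tek, was at 0 in both shSC libraries at Day 0, at 2.10 CPM at Day 2 and at 8.16 at Day 4.

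Of 20 tested hemato-endothelial transcription factors other than the members, 13 rose and 2 fell from Day 0 to Day 2 in each line, and 15 and 3 by Day 4. Their median was 1.51 in the shSC line and 1.79 in the shCTSL line. Fli1, an ETS factor downstream of Etv2, was at 0 in the shSC libraries at Day 0, at 14.5 CPM at Day 2 and at 17.1 at Day 4, and at 0.0900, 7.53 and 13.7 in the shCTSL line. Unlike Etv2, it was still high at Day 4. Foxc1, a forkhead factor of the vascular lineage, rose by 7.03 ± 0.35 on the log2 scale in the shSC line (adjusted p = 1.5e-07) and by 5.98 ± 0.32 in the shCTSL line (adjusted p = 2.18e-07).

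Of 16 endothelial markers beyond Cdh5 and Pecam1, 9 rose and 3 fell from Day 0 to Day 2 in the shSC line and 10 and 2 in the shCTSL line. By Day 4 it was 12 and 3, and 12 and 2. The median to Day 2 was 1.95 in the shSC line and 1.38 in the shCTSL line, or 1.32 and 0.92 with the 2 genes that were at 0 at Day 0 set to a floor of 3 counts per library. Emcn was at 0 in all 4 Day 0 libraries of both lines and at 2.56 and 3.68 CPM at Day 2 and Day 4 in the shSC line. Clec14a rose by 4.52 ± 0.52 to Day 2 in the shSC line (adjusted p = 3.29e-05), from 0.138 to 3.31 CPM. The summed level of the 16 markers was 152 to 156 CPM at Day 0, 246 to 259 at Day 2 and 367 to 397 at Day 4 in the shSC libraries, and 134 to 139, 189 to 239 and 339 to 370 in the shCTSL libraries. The sum in both shCTSL libraries was thus under that of both shSC libraries already at Day 0 and again at Day 2, and the lines overlapped at Day 4. Of the 9 members other than Kdr, this was so for 2 at Day 0 and for 8 at Day 2. The Day 2 sum of VEGF and angiopoietin signalling was lower too, at 223 to 269 CPM in the shCTSL libraries against 297 to 305 in the shSC libraries. That of the 22 listed hemato-endothelial transcription factors was higher, at 820 to 851 against 782 to 787. Gene by gene, both shCTSL libraries lay under both shSC libraries in 10 of the 16 endothelial markers, 6 of the 10 genes of VEGF and angiopoietin signalling and 10 of the 20 transcription factors, against 22.7% of all genes. Both lay above both shSC libraries in 1, 0 and 3 of them, against another 22.7% of all genes. The median log2 difference between the lines was -0.44, -0.38 and -0.32, against 0.02 over all genes. These comparisons of the lists between the lines are given only with both shCTSL Day 2 libraries.

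Blood markers were few. Of 12, 7 had enough reads to test, and 4 rose and 1 fell from Day 0 to Day 2 in the shSC line and 5 and 1 in the shCTSL line. The median was 1.39 and 1.26, or -0.15 and 1.24 with Hbb-y set to that floor. The embryonic globin Hbb-y was at 0 in all Day 0 libraries and at 0.779 CPM at Day 4 in the shSC line. Its call at Day 2 in the shSC line (adjusted p = 0.0354) was lost without either shSC Day 0 library or without replicate 1 of shSC Day 2, with adjusted p from 0.114 to 0.155. The adult globin Hba-a1 was at 0 in every library, and Hbb-bh1, Hba-x and Ptprc did not exceed 1.07 CPM in any. The summed level of the blood list fell from 744 to 748 CPM at Day 0 to 296 to 299 at Day 4 in the shSC libraries, most of it in Tfrc, the transferrin receptor that dividing cells of every kind use, which went from 675 to 144 CPM. Some endothelial markers were detected from Day 0 on, with Eng at 28.9 CPM or more and Egfl7 at 27.3 or more in every library. The endothelial sum was higher at Day 2 and Day 4, while the globins, which define red blood cells, were at or near 0.

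Markers of other cell types that use some of the 10 genes were also detected. Of 16 markers of primitive and visceral endoderm 12 rose and 0 fell from Day 0 to Day 2 in the shSC line and 15 and 0 in the shCTSL line, and 15 and 0 by Day 4 in each line, and their sum went from 489 to 512 CPM at Day 0 to 1161 to 1165 and then 2400 to 2640 in the shSC libraries. The median to Day 2 was 3.73 in the shSC line, or 3.26 with 2 genes at the floor, and 3.17 in the shCTSL line. Of 9 tested trophoblast markers 6 rose and 2 fell by Day 2 and 7 and 2 by Day 4 in each line, with medians to Day 2 of 1.42 and 1.90. The trophoblast markers Elf5, Prl3d1 and Tpbpa had too few reads to test and did not exceed 0.751, 0.148 and 0.221 CPM in any library. Of 11 tested spinal V2b and neuronal markers 4 rose and 2 fell by Day 2 and 8 and 2 by Day 4 in each line, with medians of 0.92 and 0.88. Gata3, a relative of Gata2 that is on both of these lists, went from 2.08 to 44.9 and 199 CPM in the shSC line and from 3.37 to 40.9 and 191 in the shCTSL line. Of 11 tested mesoderm markers 6 rose and 2 fell by Day 2 in each line, with medians of 1.16 and 1.36. Hand2 was up by 6.38 ± 0.44 in the shSC line (adjusted p = 1.07e-06). T and Mixl1 did not exceed 1.19 and 1.26 CPM in any library, and Mesp1 had too few reads to test. The summed mesoderm level in the shSC libraries was 121 to 129 CPM at Day 0, lower at 91.5 to 102 at Day 2, and 204 to 245 at Day 4. Of 12 naive pluripotency genes 10 fell and 0 rose in both lines at Day 2 and at Day 4, with medians to Day 2 of -2.56 and -2.48. At Day 2, where the 10 genes were lower in the shCTSL line, the trophoblast sum was 323 to 460 CPM in the shCTSL libraries against 258 to 292 in the shSC libraries, and the primitive endoderm sum 964 to 1369 against 1161 to 1165. The neuronal sum was 195 to 222 against 186 to 187, and the mesoderm sum 87.0 to 103 against 91.5 to 102. Lower in both shCTSL libraries were the blood sum, 225 to 297 against 351 to 352, and the naive pluripotency sum, 1211 to 1242 against 1293 to 1313. The part of these cell types in the levels of the 10 genes was not tested.

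**Figure D4:**
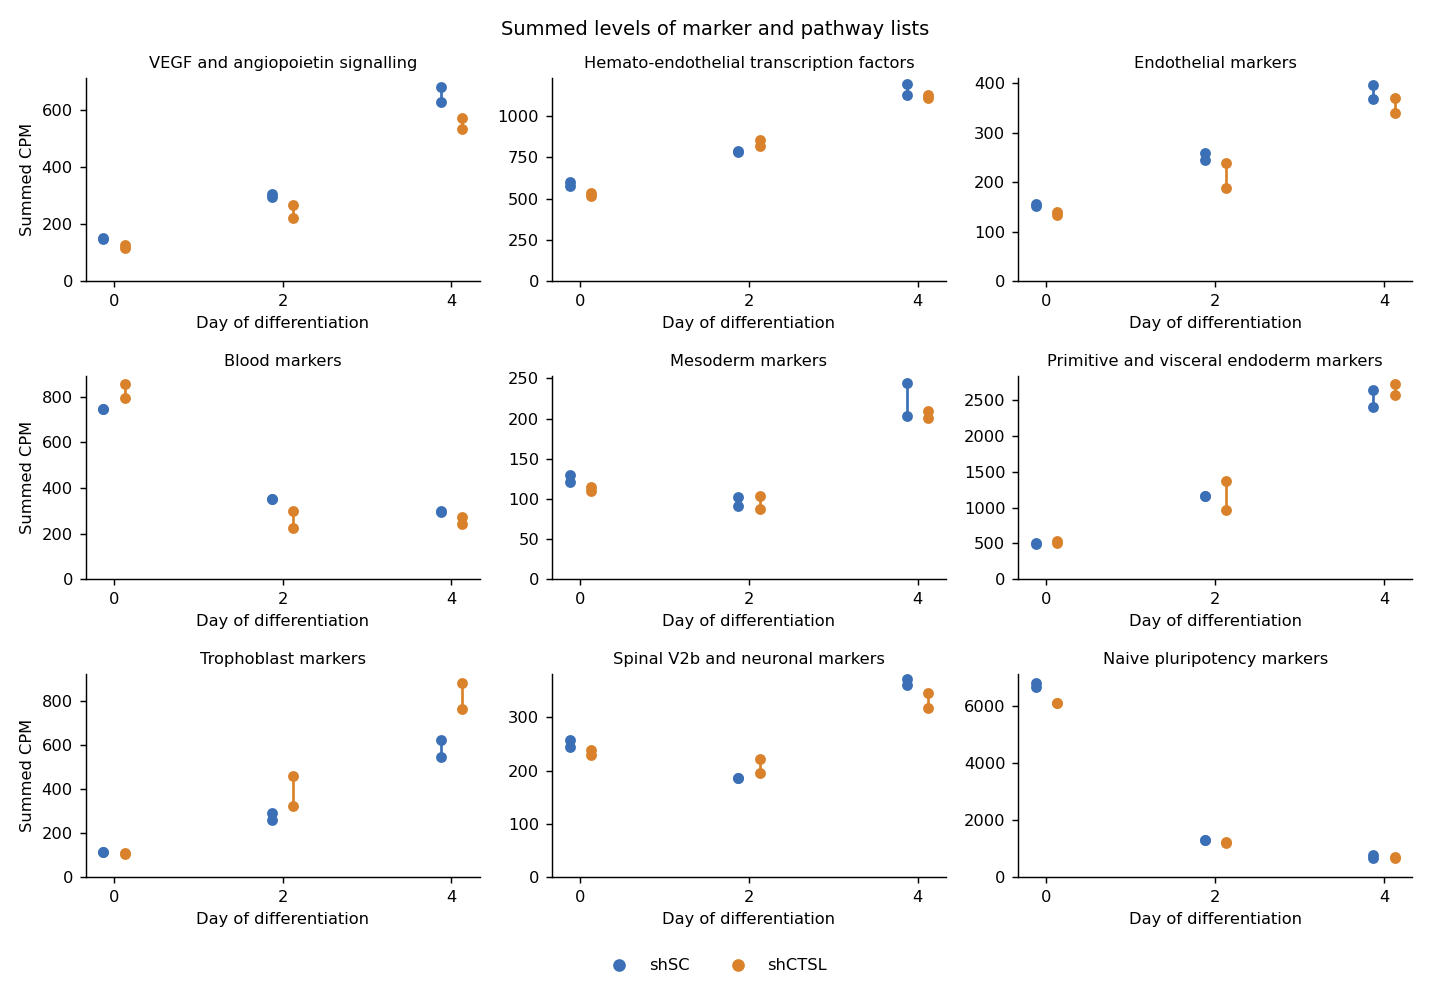
Summed CPM of 9 marker lists (vertical axis) at Day 0, 2 and 4 (horizontal axis) in the shSC and shCTSL lines, with a point for each of the 2 libraries of a group and a bar between them. The endothelial, trophoblast and primitive endoderm sums were higher at each later day and the naive pluripotency sum was lower, while the blood sum fell with Tfrc.

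The likeness of the members' courses is given as Pearson's r of log2 CPM over the 12 libraries, which share the day of sampling in groups of 4, as a description with no test. Kdr and Tek had r = 0.98, Kdr and Cdh5 0.97, and Cdh5 and Gata2 0.97. Etv2 was apart, with 0.31 to Kdr, 0.09 to Cdh5, -0.10 to Gata2 and 0.78 to Flt4. Over all genes tested the most alike were Sh3bp5, Tmem164 and Adam10 for Kdr (up to 0.996), Ank3, Lpcat3 and Pcdh1 for Flt1 (0.986), Miga1, Gabrr1 and Ski for Flt4 (0.980) and Mest, Lmbrd1 and Cpd for Tek (0.992). They were Igf2, St3gal1 and Hivep2 for Cdh5 (0.997) and Srpk2, Gli1 and E2f3 for Pecam1 (0.985). For the transcription factors they were Edil3, Gata5 and Ptn for Gata2 (0.997), Peli1, Pcdh12 and Magel2 for Tal1 (0.973), Bik and Fam63b for Lmo2 (0.987), and Il4ra, Egln3 and Pdx1 for Etv2 (0.970). Of these, Pcdh12 is a protocadherin of endothelial cells and Gata5 a relative of Gata2.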

How the data were processed

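Poly(A) RNA was measured in 12 libraries. The deposited values are raw read counts for 24495 RefSeq genes. The authors prepared directional libraries, used STAR 2.3.0e for alignment to mm9 and SAMtools 0.1.19 to drop reads that were mitochondrial, off the chromosomes or mapped at a quality below 10, and counted with featureCounts 1.6.2. The sources used here do not give the strand setting of the counting step, so antisense reads may be included. Libraries were grouped by line and day from the sample labels.

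The tests used edgeR 4.0.16 under R 4.3.3 (quasi-likelihood test, TMM, all 12 libraries, 6 residual degrees of freedom) after filterByExpr with a minimum count of 10, which kept 15532 genes. Adjusted p-values are Benjamini-Hochberg values over these. A call needed an adjusted p under 0.05 and a 1.5-fold change. CPM are TMM-normalised, and RPKM divides them by exonic length. Log2 CPM for r used a pseudocount of 0.5. Depth was 11171111 to 27155553 counts, and p-values cover the spread between 2 libraries per group, which the study calls biological replicates and the labels do not tie to separate cultures. Alternatives were DESeq2 1.42.0 and limma 3.58.1 (voom with quality weights), RLE normalisation, other filters and cutoffs, a fit of the groups compared alone, a replicate block and each library left out. Fits without both shCTSL Day 2 libraries and with exonic length offsets were chosen after seeing the data. The edgeR script was tested on simulated data. Exonic lengths came from GENCODE M1 on mm9, for 14027 of the tested genes, promoter sequences from RefSeq (GRCm38.p6), and figures from matplotlib 3.10.9. The 10 genes and the 9 lists (VEGF and angiopoietin signalling, hemato-endothelial transcription factors, and endothelial, blood, mesoderm, primitive and visceral endoderm, trophoblast, spinal V2b and neuronal, and naive pluripotency markers) were chosen with earlier results of these data known. All 10 genes are named, as are called list genes among the 3 with the largest log2 fold change, genes at 0 throughout, and the 3 genes with the highest r to each member, of which 1 is not reported here. Other list genes were named after their values were seen.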

Additional observations from a re-analysis of the deposited data

How the results depend on the processing

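All 10 members were called from Day 0 to Day 2 in the shSC line under every setting run. In the shCTSL line 8 were called with a cutoff of 1.5 on the log2 scale, where Flt4 and Tek no longer passed, 9 with the groups compared alone, where Flt4 did not, and 10 under the others. The members called from Day 2 to Day 4 in the shSC line fell from 8 to 3 at that cutoff and ran from 5 to 8 when single libraries were left out, and in the shCTSL line they fell from 5 to 3 and ran from 5 to 7. Kdr was named for its Day 2 difference and is left out of the counts between the lines. Of the 9 other members, those called at Day 2 went from 0 to 4 with DESeq2, 4 without the filter on low counts and 4 with exonic length offsets. Over all genes these calls were 10, and 125, 60 and 40 under those settings, and 0 with voom, with the replicate block and with the groups compared alone. At Day 0 they were 6 (48 with DESeq2, 254 with voom, 29 without the filter, 269 with the groups compared alone) and at Day 4 they were 2 (132, 723, 119 and 711), and from Day 2 to Day 4 in the shCTSL line 3630 (1255 with voom and 1201 with the groups compared alone). In the interactions none of the 9 members other than Kdr was called with DESeq2, without the filter, with exonic length offsets or with the groups compared alone. Without both shCTSL Day 2 libraries these comparisons could not be made. No pairing by replicate number showed (correlation of deviations between groups from -0.47 to 0.26), but with 2 libraries per group this does not establish that the samples were unpaired. With the replicate block the counts of members called were 10, 8 and 8 in the shSC line, 10, 8 and 5 in the shCTSL line, and 0 between lines and in the interactions. Values near 0 changed sign. Etv2 between lines at Day 4 (0.01) was -0.0246 without the filter, -0.18 with length offsets and -0.31 to 0.31 with single libraries left out. The interaction of Flt1 from Day 0 to Day 2 (0.00) was -0.0318 with RLE and -0.0265 with DESeq2, -0.12 with voom, -0.10 with the replicate block, -0.0026 with the groups compared alone and -1.12 to 0.59 with single libraries left out. With single libraries left out, Etv2 from Day 0 to Day 4 in the shSC line ran from -0.54 to 0.0677, Tek from Day 2 to Day 4 in the shSC line from -0.15 to 0.0445, and Flt1 from Day 2 to Day 4 in the shCTSL line from -1.33 to 0.40. Of the counts of called genes per list, 19 moved by over 1.5 times and 449 did not with other settings, and 13 and 635 with single libraries left out. The causes were not tested. Counting limited Cdh5 most, with 5 to 10 reads per library at Day 0.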
